A study of Mus musculus with 4 samples.

Results

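The Schlafen genes were examined in the tissue surrounding the femoral artery (FA) of mice after vascular injury. The genes were taken by symbol as *Slfn1*, *Slfn2*, *Slfn3*, *Slfn4*, *Slfn5*, *Slfn8* and *Slfn9*, and 6 of these 7 had a row among the 12661 genes of the expression table. The expression of *Slfn9* was not analysed here, and this gene enters only through its annotation and sequence. The rows of *Slfn10-ps*, a gene with a pseudogene symbol, and of *Slfn5os*, a transcript antisense to *Slfn5*, are given beside them. The family was chosen after its differences between injury and sham in these libraries were known, so these differences are a description. No p-value of a single Schlafen gene is printed, and counts of those past a threshold only place them among all genes. No Schlafen row was identical to another row.

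All mice were wild type C57BL/6 females, 11 weeks old, and had been ovariectomized, so both groups lacked ovarian hormones. The injury group was sampled 48 h after a wire had been inserted into the FA, and the sham group 48 h after a sham operation, with 2 libraries in each group. Whether a library came from 1 mouse or several is not given in the labels, so p-values measure only the spread between these libraries. The tissue was the whole outer layer, mainly perivascular adipose tissue (PVAT) by the study's account, and in such bulk RNA more cells of a type and more RNA per cell cannot be told apart. Values are those the authors deposited. They are signed, and the mean of a gene over the 4 libraries was mostly near 0 (quartiles -0.12 and 0.12) without being set to 0, with 1484 genes above 0 and 1513 below 0 in every library. They behave as a log scale of unstated base, so differences are stated in deposited units, without conversion to folds. A value can be compared between libraries for 1 gene, but it does not show which of several genes is more abundant. The sequencing depth behind the values is unknown.

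Schlafen proteins are mostly found in cells of the immune system, and many of their genes are induced by type I interferon. The mouse family is grouped by protein length. *Slfn1* and *Slfn2* encode short proteins linked to the control of cell growth and to the quiescence of T cells and monocytes, *Slfn3* and *Slfn4* encode proteins of intermediate length, and *Slfn5*, *Slfn8* and *Slfn9* encode long proteins with a helicase-like region. *Slfn4* is known as a gene of myeloid cells that responds to interferon and to Toll-like receptor ligands.

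The 6 genes lie together on chromosome 11, within 264 kb of mm9 by the GENCODE annotation. In the order of the chromosome they are *Slfn5* (chr11:82764851-82776443, plus strand), *Slfn8* (chr11:82815660-82834312, minus strand), *Slfn2* (chr11:82878614-82884180), *Slfn1* (chr11:82930351-82936172), *Slfn4* (chr11:82988688-83003723) and *Slfn3* (chr11:83004832-83028656), the last 4 on the plus strand. *Slfn9* and *Slfn10-ps* are annotated next to *Slfn8*. Between the end of *Slfn4* and the start of *Slfn3* lie 1108 bases. No exonic base is shared between any pair of the 7 genes in this annotation. *Slfn5os* (chr11:82755843-82774183, minus strand) is different, with 77 of its 574 exonic bases lying opposite exons of *Slfn5* and 151 opposite exons of *Unc45b*. The library kit keeps the strand, but the strand setting of the counting is not stated, so reads of these overlapping transcripts may not have been told apart.

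The closest pair in sequence was *Slfn4* and *Slfn3*. Over 1520 aligned coding bases 95.4% were identical, with 70 differences. The next were *Slfn9* and *Slfn10-ps* at 93.6%, followed by *Slfn10-ps* and *Slfn8* at 92.9% and by *Slfn9* and *Slfn8* at 92.7%. Among *Slfn1*, *Slfn2*, *Slfn3* and *Slfn4* all other pairs were between 71.6% and 76.1%, and *Slfn5* was at 65.0% or below to every other gene. The stretch below is the 150-base coding window within 1 exon that holds the most differences between *Slfn4* and *Slfn3*, with the 18 differing bases in capitals. It is shown because such differences separate reads of both genes where their coding sequences align. It lies in exon 7 of 8 of *Slfn4* (chr11:83000350-83000499 of mm9, plus strand) and in exon 2 of 3 of *Slfn3* (chr11:83026369-83026518, plus strand).
Slfn4: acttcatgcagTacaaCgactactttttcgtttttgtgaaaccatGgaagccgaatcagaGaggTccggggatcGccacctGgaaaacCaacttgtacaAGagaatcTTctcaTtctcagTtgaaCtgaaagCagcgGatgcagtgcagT
Slfn3: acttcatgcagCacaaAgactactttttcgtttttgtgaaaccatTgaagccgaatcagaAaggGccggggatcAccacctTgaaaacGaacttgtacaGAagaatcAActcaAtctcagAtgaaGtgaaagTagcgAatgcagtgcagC
The longest run of identical bases in the whole coding alignment of both genes was 95. Of the distinct 50-base windows in the annotated transcripts of *Slfn3*, 13.9% also occurred in another Schlafen transcript, and no window of 100 or 150 bases did. For *Slfn4* the share was 8.07% at 50 bases and 0.0487% at 100 bases, the latter made up of 2 windows shared with *Slfn2*. For *Slfn8* 3.39% of windows were shared at 100 bases and none at 150, the length of 1 read. *Slfn10-ps* shared 7.84% at 100 bases and 2.51% at 150, where its partner was *Slfn9*. How reads that fit several genes were counted is not stated, so values of *Slfn3*, *Slfn4*, *Slfn8* and *Slfn10-ps* carry the uncertainty of close copies.

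For *Slfn4* the sham libraries stood at -1.41 and -1.27, and the injury libraries at 2.72 and 1.06. The groups were far apart, with the lower injury library 2.33 units above the higher sham library, and the injury libraries also differed widely from each other. The means were -1.34 ± 0.10 (SD, n = 2) after sham operation and 1.89 ± 1.17 (SD, n = 2) after injury. Their difference was 3.23, with a standard error of 0.52. Standard errors here and below are those of limma, which borrows the spread of the other genes. The difference of *Slfn4* was the highest of all 12661 genes.

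*Slfn1*, the Schlafen gene next to *Slfn4* on the side of lower coordinates, was at -1.52 and -0.98 after sham operation and at 1.72 and 0.59 after injury. Both injury libraries were again above both sham libraries, and the difference of 2.41 (standard error 0.40) was the 11th highest of all genes. *Slfn2*, the other short gene, was at -0.63 and -0.25 after sham operation and at 0.80 and -0.01 after injury. The second injury library lay only 0.24 units above the higher sham library. The difference of *Slfn2* was 0.83 (standard error 0.30), which was 1.57 units smaller than that of *Slfn1*.

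*Slfn3* went the other way. Its values were 1.17 and 0.94 in the sham libraries and -0.07 and -0.56 in the injury libraries. All injury values were below all sham values, by at least 1.01 units, and the difference of -1.37 (standard error 0.21) was the 158th lowest of all genes. Within each library the value of *Slfn4* minus that of *Slfn3* was -2.58 and -2.21 after sham operation and 2.79 and 1.62 after injury. The contrast between these adjacent genes with 95.4% coding identity thus shifted by 4.598 units.

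Of the long genes, *Slfn8* was at -0.72 and -0.42 after sham operation and at 1.10 and 0.08 after injury. The groups did not overlap, and the difference was 1.16 (standard error 0.35). *Slfn5* was at 0.47 and 0.27 after sham operation and at 0.49 and 0.26 after injury. Its groups overlapped completely, and its difference of 0.0009 (standard error 0.16) was smaller than the gap of 0.20 between the sham libraries. *Slfn10-ps* was at -0.21 and -0.39 after sham operation and at 0.53 and 0.23 after injury, a difference of 0.68 (standard error 0.17). *Slfn5os* was at 0.82 and 0.76 after sham operation and at 0.33 and 0.09 after injury, a difference of -0.58 (standard error 0.15), while the groups of *Slfn5* on the opposite strand overlapped.

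**Figure D1:**
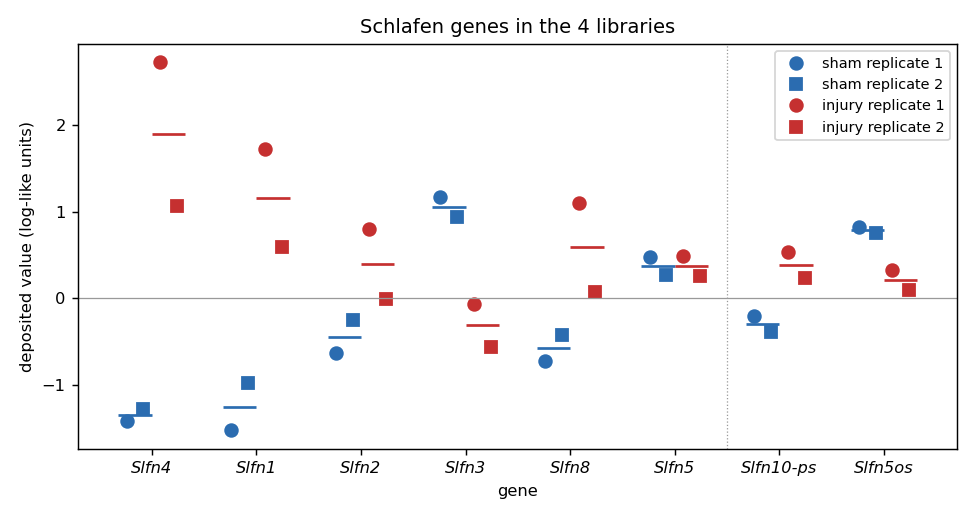
Deposited value (log-like units) of each Schlafen gene in the 4 libraries. Points are single libraries and short lines are group means, with *Slfn10-ps* and *Slfn5os* to the right of the dotted line. The injury values of *Slfn4* (2.72 and 1.06) stand above its sham values (-1.41 and -1.27), while those of *Slfn3* (-0.07 and -0.56) stand below its sham values (1.17 and 0.94).

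Of the 6 genes, 4 had both injury libraries above both sham libraries, where 31.6% of all genes did, and 1 had both below, where 30.3% of all genes did. With limma and adjustment over all genes, 2 of the 6 were called higher at an adjusted p-value under 0.05, *Slfn4* and *Slfn1*, where 3.76% of all genes were. *Slfn3* was called lower, where 3.67% of all genes were. The median difference of the 6 genes was 0.998, against 0.01 over all genes. Leaving out injury replicate 1 brought it to 0.54, and leaving out injury replicate 2 to 1.46. Without sham replicate 1 or without sham replicate 2, limma called none of the 6 (3 and 5 of them had an unadjusted p-value under 0.05, against 15.5% and 20.2% of all genes), where it called 0% and 0.0079% of all genes. Without injury replicate 1 it called the same 3, where 2.24% of all genes were called, and without injury replicate 2 it called 5, with *Slfn2* and *Slfn8* added, where the same fit called 14.1% of all genes.

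**Figure D2:**
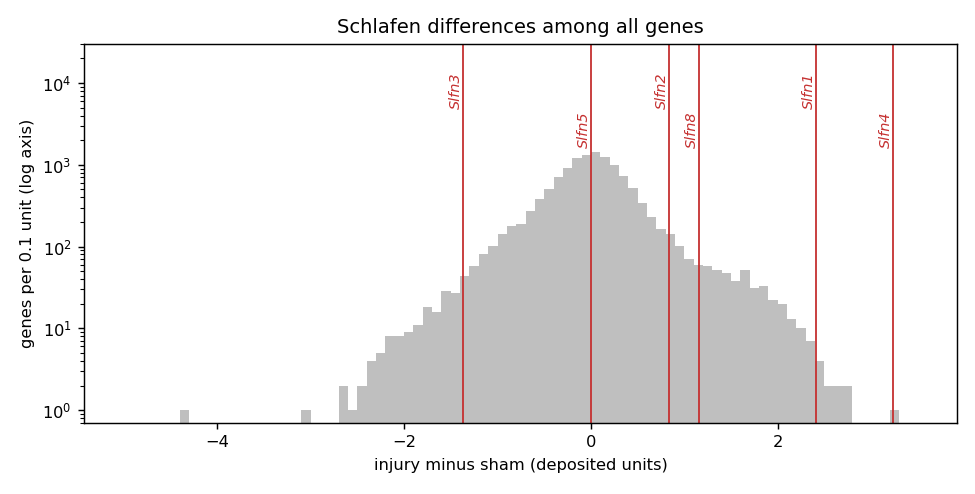
Distribution of the difference between injury and sham over all 12661 genes (bins of 0.1 deposited units, log axis), with the 6 Schlafen genes as lines. *Slfn4* (3.23) marks the upper end of the distribution, *Slfn5* (0.0009) its centre, and *Slfn3* (-1.37) lies in the lower tail.

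The injury libraries were not alike. Each of the 6 genes had its higher injury value in replicate 1, as did 48.9% of all genes, with a median gap of 0.92 units against -0.01 over all genes. The gap was largest for *Slfn4* (1.66) and *Slfn1* (1.13), followed by *Slfn8* (1.02) and *Slfn2* (0.81). It was 0.48 for *Slfn3*, whose lower injury library was therefore also injury replicate 2, and 0.22 for *Slfn5*. Set against the difference between the groups, the gap came to 0.97 of it for *Slfn2*, 0.88 for *Slfn8*, 0.51 for *Slfn4* and 0.47 for *Slfn1*. Without injury replicate 1 the difference of *Slfn4* was 2.40, and without injury replicate 2 it was 4.06. For *Slfn1* these values were 1.84 and 2.97. For *Slfn2* they were 0.43 and 1.24, and for *Slfn8* 0.65 and 1.67, so the size of both depended on which injury library was kept. *Slfn3* stayed between -1.61 and -1.12 with any library left out. *Slfn5* changed sign, from -0.11 to 0.11.

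**Figure D3:**
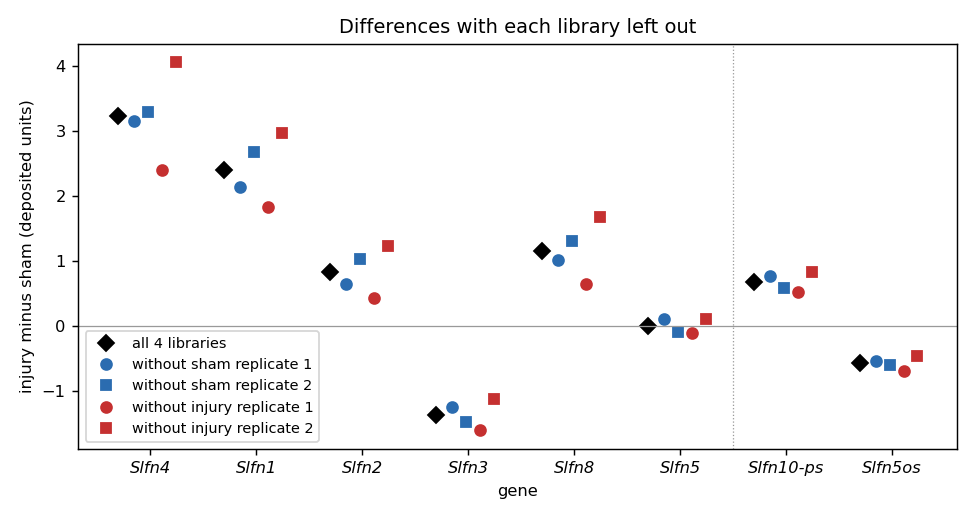
Difference between injury and sham for each Schlafen gene, in deposited units, with all 4 libraries (diamonds) and with each library left out in turn (circles and squares). *Slfn4* stays between 2.40 and 4.06, *Slfn3* between -1.61 and -1.12, and *Slfn5* falls on both sides of 0.

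Likeness across the libraries was set beside likeness in sequence. The profile of each gene was centred on its own mean over the 4 libraries, and the Euclidean distance between profiles was taken as the measure of likeness. *Slfn4* and *Slfn3*, the closest in coding sequence, were the farthest apart, at 4.68 units. *Slfn8* and *Slfn2* had the nearest profiles, at 0.37 units, with a coding identity of 61.7% over 407 aligned bases. *Slfn4* was nearest within the family to *Slfn1*, at 0.95 units, which ranked 6th of all genes in closeness to *Slfn4*. In the other direction *Slfn4* had only rank 173 among all genes in closeness to *Slfn1*.

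**Figure D4:**
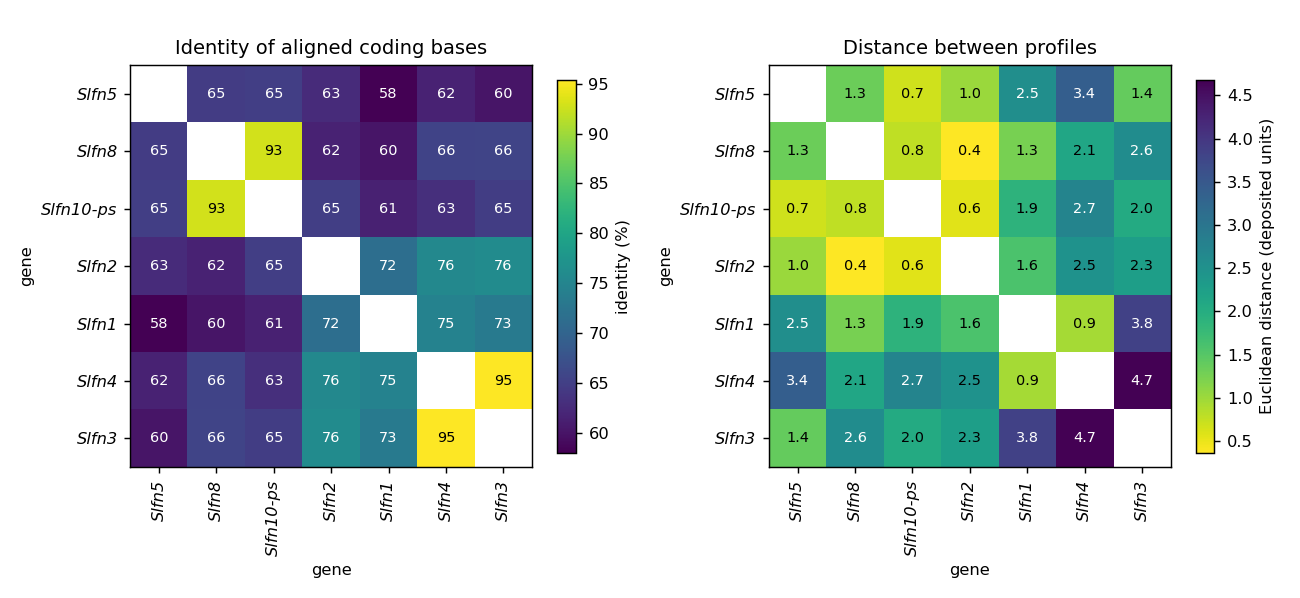
Identity of aligned coding bases (left, percent) and Euclidean distance between centred profiles over the 4 libraries (right, deposited units) for each pair of Schlafen genes with a row. *Slfn4* and *Slfn3* combine the highest identity shown (95.4%) with the largest distance (4.68).

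Outside the family, 3 genes were named for each Schlafen gene by the smallest distance over the 4 libraries. For *Slfn4* they were *Il1rn*, the interleukin-1 receptor antagonist gene (distance 0.76), *Irg1*, the itaconate-producing enzyme gene (0.78), and *Mir7678* (0.86). For *Slfn1* they included *Nlrp3*, an inflammasome sensor gene (0.11), and *Slc7a11*, a cystine transporter gene (0.12). The 3 genes nearest to *Slfn3* were *Golm1*, a Golgi protein gene (0.18), *Klhl4* (0.22) and *Sema3f*, a semaphorin gene (0.28). *Slfn8* was nearest to *C5ar2*, a complement C5a receptor gene (0.09), to *Havcr2*, which encodes TIM-3 (0.13), and to *Oas1a*, an interferon-induced antiviral gene (0.13). *Slfn2* was nearest to *Ubd*, *Sdf2l1* and *Lpcat2* (0.07 to 0.10), and *Slfn5* to *Map3k11*, *Parg* and *Mgrn1* (0.02 to 0.03). Distances over 4 libraries are a description, and gene pairs with a small spread come out close more easily.

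The stretches just before the start sites are shown to set the genes with different directions beside each other. They are from RefSeq on GRCm38.p6, another build than the one used for counting, and are written along the gene. *Slfn10-ps* had no entry. For *Slfn4* (chr11:83175086-83175185, plus strand), *Slfn3* (chr11:83191230-83191329, plus strand), *Slfn1* (chr11:83116720-83116819, plus strand), *Slfn2* (chr11:83065012-83065111, plus strand) and *Slfn8* (chr11:83020811-83020910, minus strand, the first of 2 listed starts) they are the last 100 bases before the start. For *Slfn5* (chr11:82951902-82952001, plus strand) they are the 100 bases that precede those. Capitals mark matches, on either strand, to the interferon-stimulated response element (ISRE, here GAAA, any 2 bases, GAAA), the gamma-activated site (GAS, TTCNNNGAA), an ETS core (AGGAAGT), an AP-1 site (TGACTCA) and a TATA box (TATAAA). No match overlapped another.
Slfn4: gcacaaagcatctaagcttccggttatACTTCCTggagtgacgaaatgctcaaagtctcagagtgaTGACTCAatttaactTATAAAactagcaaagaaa
Slfn3: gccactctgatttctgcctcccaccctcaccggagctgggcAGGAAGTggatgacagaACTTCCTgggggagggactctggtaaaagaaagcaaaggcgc
Slfn1: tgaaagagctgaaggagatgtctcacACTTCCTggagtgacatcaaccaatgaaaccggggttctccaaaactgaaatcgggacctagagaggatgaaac
Slfn2: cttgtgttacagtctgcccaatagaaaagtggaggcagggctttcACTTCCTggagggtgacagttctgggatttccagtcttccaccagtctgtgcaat
Slfn8: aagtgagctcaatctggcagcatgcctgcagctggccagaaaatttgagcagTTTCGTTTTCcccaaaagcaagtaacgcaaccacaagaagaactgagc
Slfn5: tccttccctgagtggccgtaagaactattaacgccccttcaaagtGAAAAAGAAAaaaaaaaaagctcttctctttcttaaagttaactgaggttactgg
In windows of 250 bases before to 50 after the start, the ISRE letters were in those of *Slfn5*, *Slfn8* and *Slfn9*, and in 3.44% of all 32851 windows. The ETS letters were in those of *Slfn1*, *Slfn2*, *Slfn3* and *Slfn4*, and in 9.35% of all windows. The AP-1 letters were in that of *Slfn4* alone among these genes (5.20% of all windows), from 34 bases before its start, and the TATA letters too (13.6% of all windows). No Schlafen window held the GAS letters (8.30% of all windows). *Slfn4* and *Slfn1* shared a run of 15 identical bases over the ETS letters, the whole of their local alignment before the start. *Slfn4* and *Slfn3* aligned there over 11 bases, with 10 identical, and *Slfn4* and *Slfn2* over 11 bases, with 11 identical. The alignment of *Slfn4* was longer with *Slfn5* (35 bases, 27 identical) and with *Slfn8* and *Slfn9* (38 bases each, 24 identical). *Slfn1* aligned over 16 bases with *Slfn2* (15 identical) and with *Slfn3* (13 identical). *Slfn8* and *Slfn9* aligned over 224 bases with 88.4% identity. A match describes letters only and is not a measured binding site. *Slfn5*, whose groups overlapped, held the ISRE letters as *Slfn8* did. *Slfn3*, which was lower after injury, held the ETS letters as *Slfn4* did. The part of these motifs in the Schlafen values was not tested.

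The genes around the locus were taken within 500 kb of its ends, and 19 of them had a row. The nearest on the side of *Slfn5* was *Unc45b*, a myosin chaperone gene, which was at 0.59 and 0.49 after sham operation and at 0.13 and 0.25 after injury (difference -0.35, adjusted p = 0.167 from limma). The nearest on the side of *Slfn3* was *AI662270*, a non-coding transcript on the same strand, with 8421 bases between it and *Slfn3* (chr11:83037078-83040106). *AI662270* was at -1.01 and -1.11 after sham operation and at 0.83 and -0.0009 after injury, with no overlap, and rose by 1.47 (standard error 0.28, adjusted p = 0.0444 from limma). It is thus separated from *Slfn4* by *Slfn3*, whose values were lower after injury. *AI662270* was no longer called without injury replicate 1 (adjusted p = 0.053 from limma), nor without sham replicate 1 (0.215) or sham replicate 2 (0.166).

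Farther along, the CC chemokine genes *Ccl5*, *Ccl9* and *Ccl6* rose by 1.95, 1.68 and 1.34 units (adjusted p = 0.0291, 0.0285 and 0.0285 from limma). *Ccl3* and *Ccl4* had differences of 2.15 and 2.26 that did not pass the threshold (adjusted p = 0.0786 and 0.0871 from limma). *Mmp28*, a matrix metalloproteinase gene, and *1700020L24Rik* had both injury libraries below both sham libraries, with differences of -1.33 and -0.81 that narrowly missed the threshold (adjusted p = 0.0549 and 0.0542 from limma). With the replicate block *Mmp28* was called lower (adjusted p = 0.04346 from limma). In all 4 of the 19 neighbours were called higher and none lower, against 3.76% and 3.67% of all genes, and 10 of the 19 had an unadjusted p-value under 0.05, against 29.5% of all genes. Their median difference was 0.06, against 0.01 over all genes. *Ap2b1*, which like *Mmp28* and *1700020L24Rik* lies between *AI662270* and the chemokine genes, differed by 0.06 (limma, adjusted p = 0.790). Without either sham library none of the 19 was called (9 and 8 had an unadjusted p-value under 0.05, against 15.5% and 20.2% of all genes), and without injury replicate 2 limma called 8, of which 6 were higher and 2 lower, against 14.1% of all genes.

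**Figure D5:**
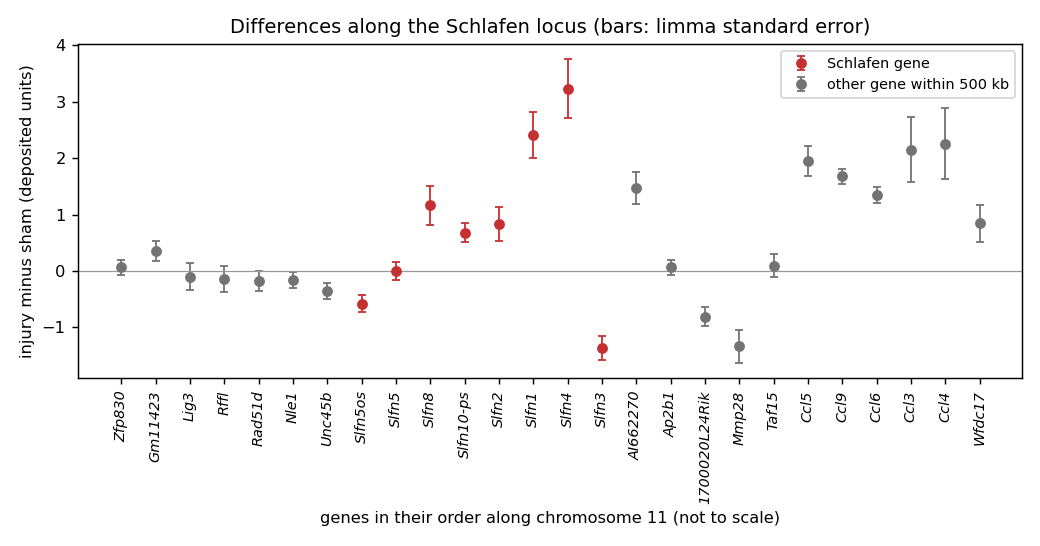
Difference between injury and sham, in deposited units with the limma standard error, for genes in their order along chromosome 11 (not to scale). Schlafen genes are in red and 18 of the 19 other genes within 500 kb in grey. The differences run from -0.58 at *Slfn5os* through 3.23 at *Slfn4* to -1.37 at *Slfn3*, next to 1.47 at *AI662270*.

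Interferon signalling was compared through 4 lists, since interferon is the known inducer of many Schlafen genes. Of 15 ligands and receptors 5 had a row, all of them receptor chains, and 1 rose, *Ifngr2*, a chain of the interferon gamma receptor (0.94 units, standard error 0.18, adjusted p = 0.0424 from limma). Of 11 signal transducers 1 rose, the transcription factor gene *Irf5* (1.81 units, standard error 0.25, adjusted p = 0.0291 from limma). Over all genes 3.76% were called higher. *Irf7*, a regulator of the interferon response, was at -0.69 and -0.16 after sham operation and at 0.80 and -0.07 after injury. Its difference was 0.79 (adjusted p = 0.186 from limma).

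Of 30 targets of type I interferon, all with a row, 2 rose and none fell, against 3.76% and 3.67% of all genes. These were *Rsad2*, an antiviral enzyme gene (1.95 units, adjusted p = 0.0308 from limma), and *Oas2*, an oligoadenylate synthetase gene (1.52 units, adjusted p = 0.0454 from limma). All 30 had a higher mean after injury, 17 of them with both injury libraries above both sham libraries (31.6% of all genes), and the median difference was 0.66. Their mean was -0.48 and -0.15 in the sham libraries and 1.02 and 0.007 in the injury libraries. In injury replicate 2 alone some of the 30 were below their sham mean, *Ifit3* and *Mx2* among them. *Mx1*, an antiviral GTPase gene, differed by 2.12 without passing the threshold (adjusted p = 0.0539 from limma). *Isg15*, a ubiquitin-like modifier gene, was at -0.41 and 0.04 after sham operation and at 1.23 and -0.18 after injury, and its groups overlapped. Of 18 targets of interferon gamma none was called by limma (5 at an unadjusted p-value under 0.05, against 29.5% of all genes), and their median difference was 0.39. Their mean was -0.11 and 0.09 in the sham libraries and 0.82 and -0.03 in the injury libraries. Only injury replicate 1 was thus above both sham libraries. The gap between the injury libraries was also wide here. Injury replicate 1 had the higher value for all 30 type I targets, with a median gap of 1.02 units, and for all 18 targets of interferon gamma, with a median gap of 0.76. Which interferon genes limma called depended on the library left out. Without injury replicate 1 the differences of *Rsad2*, *Oas2*, *Irf5* and *Ifngr2* were 1.55, 1.11, 1.47 and 0.75. Without injury replicate 2 they were 2.36, 1.93, 2.14 and 1.14. With a block for the replicate number neither *Oas2* nor *Ifngr2* was called (limma, adjusted p = 0.05555 and 0.05103).

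Of 13 macrophage and monocyte markers 7 rose, among them *Ccr2* (2.30 units), *Fcgr1* (2.14), *Itgam* (1.61) and *Lyz2* (1.54), against 3.76% of all genes, and 12 had both injury libraries above both sham libraries, against 31.6%. Their mean value lay between -1.14 and -0.97 in the sham libraries and between 0.05 and 0.67 in the injury libraries. Of 7 neutrophil markers with a row 2 rose, *Retnlg* (1.83) and *Mmp8* (1.46), and for all 7 injury replicate 1 was the higher injury library, with a median gap of 1.38. Their mean was between -1.25 and -0.91 after sham operation and between 0.12 and 1.26 after injury. *Cd22*, *Klrb1c* and *Itgax* rose from the lists of B cells (1 of 2 with a row), natural killer cells (1 of 5) and dendritic cells (1 of 7), none of 4 T cell markers was called by limma (*Cd2*, *Lck*, *Cd247* and *Lat*, 0 of them at an unadjusted p-value under 0.05), and no marker of these lists fell. *Zbtb46*, a transcription factor gene of conventional dendritic cells, had both injury libraries below both sham libraries (difference -0.63, adjusted p = 0.0596 from limma), and *Cd79b* of B cells and *Cd247* of T cells differed by -0.03 and -0.07. With the replicate block neither *Fcgr1* nor *Klrb1c* was called (limma, adjusted p = 0.05859 and 0.06287). The part of these cell types in the Schlafen values was not tested.

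In the direction of *Slfn3*, 4 of 5 smooth muscle markers fell, *Acta2*, *Myh11*, *Tagln* and *Cnn1*, with a median difference of -2.18 over the 5, and 2 of 8 endothelial markers, *Vwf* (-2.40) and *Pecam1* (-1.04), against 3.67% of all genes. The mean of the smooth muscle markers lay between 0.998 and 1.70 in the sham libraries and between -1.33 and -0.25 in the injury libraries, and that of the endothelial markers between 0.60 and 0.75 and between -0.20 and -0.14. Of 10 adipocyte markers, all with a row, 1 fell, *Plin1* (-0.74), and the median difference was -0.30. Their mean was 0.22 and 0.35 in the sham libraries and -0.23 and 0.18 in the injury libraries. Injury replicate 2 thus stood near the sham libraries. With the replicate block none of the 4 smooth muscle genes was called (limma, adjusted p between 0.05205 and 0.06518), nor was *Plin1* (0.06564). None of 5 skeletal muscle markers, 7 platelet markers or 10 proliferation genes was called by limma (2, 2 and 1 at an unadjusted p-value under 0.05, against 29.5% of all genes). Their median differences were -0.74, -0.18 and 0.24. The 2 platelet markers, *Pf4* and *Ppbp*, were higher after injury (1.25 and 0.91 units, adjusted p = 0.0544 and 0.0561 from limma). The mean of the skeletal muscle markers was 0.84 and -0.13 in the sham libraries and -0.29 and -0.37 in the injury libraries. Sham replicate 1 thus stood apart. Injury replicate 1 had the lower value of all 5 smooth muscle markers and the higher value of *Slfn3*. Among the 8 endothelial markers it had the higher value for 2. The part of smooth muscle and endothelium in the values of *Slfn3* was not tested. Without sham replicate 1 or sham replicate 2 limma called none of the 83 marker genes with a row (35 and 45 had an unadjusted p-value under 0.05, against 15.5% and 20.2% of all genes). It called 8 of them without injury replicate 1 and 40 without injury replicate 2, against 19 with all libraries, where the same fits called 2.24%, 14.1% and 7.43% of all genes.

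Over the whole table limma called 941 of 12661 genes (7.43%), 476 higher and 465 lower after injury. In 61.9% of genes the groups did not overlap. The smallest p that an exact two-sided permutation test of a single gene allows with 2 libraries against 2 is 0.333, and limma goes lower because it borrows the spread of the other genes.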

How the data were processed

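RNA-seq of the outer tissue around the FA was analysed for 2 sham and 2 injury libraries. According to the methods and the submitters' processing notes, the authors used FastQC 0.11.8 for read quality, cutadapt 1.18 and Trimmomatic 0.39 for adaptor and quality trimming, and STAR 2.6.0a for alignment to mm9, counted with featureCounts and used DESeq2 1.28.0. The deposited values are signed scores per gene on a log-like scale, and the step that made them from counts is not stated. Injury and sham were compared with limma 3.58.1 in R 4.3.3 (lmFit and eBayes, group as the only term, no filter, Benjamini-Hochberg over all genes, threshold 0.05). The test was checked on simulated data. The members and all lists were chosen with earlier results of these data known. Named were all Slfn rows, the 3 nearest profiles per gene, the called genes of the interferon lists and of the neighbours, and the nearest neighbour on each side. A few genes that this rule or the lists take in are not reported here. Examples that were not called, and the marker genes, were named after their values were seen, and the motifs were chosen then too. Lists covered interferon ligands and receptors, transducers, type I and gamma targets, and markers of macrophages, neutrophils, T, B, natural killer and dendritic cells, platelets, adipocytes, endothelium, smooth muscle, skeletal muscle and proliferation. Coding sequences (GENCODE, NCBIM37) were aligned locally with biopython 1.88. Alternatives were each library left out in turn, a block for the replicate number, a threshold of 0.1, limma's robust prior, scaling of every column to the same spread, quantile normalization and counting the 28 identical rows once per set. Depth is unknown, so precision is given by the spread of 2 libraries. Standard errors are limma's and also borrow the spread of other genes.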

Additional observations from a re-analysis of the deposited data

How the results depend on the processing

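The Schlafen genes were chosen on this contrast, so their calls in these refits are no test of them. Each fit to all 4 libraries at the 0.05 threshold called *Slfn1*, *Slfn3* and *Slfn4*, and a threshold of 0.1 gave 4 with *Slfn8* added. The threshold of 0.1 gave more calls by its construction, 2317 over all genes (18.3%). It gave 12 in the interferon lists (18.8%), 8 among the neighbours (42.1%) and 37 among the cell type markers (44.6%). The replicate numbers are not said to pair the libraries, and same-numbered libraries did not deviate together (correlation -0.094 across genes). With the replicate block 684 genes (5.4%) were called in all, 3 Schlafen genes (50%), 3 interferon genes (4.69%), 5 neighbours (26.3%) and 13 markers (15.7%). Without the block these counts were 941, 3, 4, 4 and 19. With each library left out in turn, where the lone library of a group is assumed to vary like the other group, the counts ran from 0 to 1790 over all genes, from 0 to 5 for the Schlafen genes, from 0 to 32 for the interferon lists, from 0 to 8 for the neighbours and from 0 to 40 for the markers. The count over all genes was 0 without sham replicate 1 (1960 at an unadjusted p-value under 0.05) and 1 without sham replicate 2, and the cause was not tested. No called gene that is named reversed its direction. Quantile normalization, columns scaled to one spread, the robust prior and identical rows counted once kept each of these counts within 1.5 times. The highest difference with a library left out was 2.88 times the lowest for *Slfn2*, 2.58 times for *Slfn8*, 1.69 times for *Slfn4*, 1.62 times for *Slfn1* and 1.43 times for *Slfn3*.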
